A study of Mus musculus with 4 samples.

Results

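Aminoacyl-tRNA synthetases were followed in the epidermis of newborn mice that lacked Skiv2l in keratinocytes. The 36 genes were chosen by name, 20 for cytosolic enzymes and 16 for mitochondrial enzymes, whose symbols end in 2, among 54752 gene identifiers in each table. All 36 passed the filter on low values, an FPKM above 0.5 in at least 1 sample, and belonged to the 13609 protein-coding genes tested. FPKM counts fragments per kilobase of transcript, scaled to the depth of the library, so levels can be compared between genes. Total RNA was sequenced from whole epidermis of C57BL/6 pups at P0, the day of birth, with 2 pups per group. Skiv2l fl/fl K14-Cre pups carry 2 loxP-flanked Skiv2l alleles and a Cre recombinase driven by the keratin 14 promoter, which is active in basal keratinocytes. By the methods of the study, the Skiv2l ctl group pools fl/fl pups without Cre, fl/+ pups and fl/+ pups with K14-Cre, and the genotype of each control pup is not given in the sources used here. Every control genotype thus holds at least 1 floxed allele, and a control pup may also carry the Cre.

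A synthetase attaches an amino acid to its matching tRNA, and the charged tRNA then delivers it to the ribosome. Cytosolic synthetases serve the translation of nuclear-encoded mRNA, and several of them sit in a multisynthetase complex held together by scaffold proteins. A separate nuclear-encoded set is imported into mitochondria, where it serves the few proteins encoded by the mitochondrial genome. Gars and Kars supply both compartments from the same gene, and Eprs, which carries glutamyl and prolyl activity in 1 polypeptide, has the separate mitochondrial counterparts Ears2 and Pars2. Transcription of many cytosolic synthetase genes is known to be raised by ATF4, the transcription factor of the amino acid and integrated stress response. SKIV2L is the helicase of the cytoplasmic RNA exosome, which degrades mRNA from its 3′ end.

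The targeted gene was checked before the synthetases. Skiv2l was at 19.3 and 19.1 FPKM in the control pups and at 10.8 and 8.55 FPKM in the knockout pups, a log2 fold change of -0.92 ± 0.12 (SE, n = 2 per group, limma adjusted p = 0.00368). Both knockout libraries lay below both controls, and transcript remained in each. Coverage relative to FPKM gave 6.085 and 6.274 gigabases of aligned sequence in the control pups and 5.843 and 5.931 gigabases in the knockout pups. Gene identifiers above 0.5 FPKM numbered 17761 and 17638 in the control pups and 17384 and 16138 in the knockout pups. Across all tested genes the median log2 fold change stood at -0.20. It moved to -0.03 when the libraries were scaled to a common median and to -0.05 after quantile normalization. Differences are therefore given as deposited and, where the call changes, also after scaling.

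Both families were detected in every library, and the cytosolic transcripts were the more abundant. Mean control levels of the cytosolic genes ran from 13.2 FPKM for Wars to 79.1 FPKM for Gars, with a median of 24.1 FPKM. Mitochondrial genes ran from 1.95 FPKM for Mars2 to 19.8 FPKM for Iars2, with a median of 6.74 FPKM. Of the 20 cytosolic genes, 13 exceeded the highest mitochondrial level, and 13 of the 16 mitochondrial genes lay below the lowest cytosolic level. Gars (glycine) and Qars (glutamine) stood highest, at control means of 79.1 ± 0.241 and 70.8 ± 0.713 FPKM (SD, n = 2). These were followed by Hars (histidine) at 44.5 ± 4.49 FPKM and Vars (valine) at 42.2 ± 0.959 FPKM, a neighbouring pair whose control values overlapped.

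**Figure D1:**
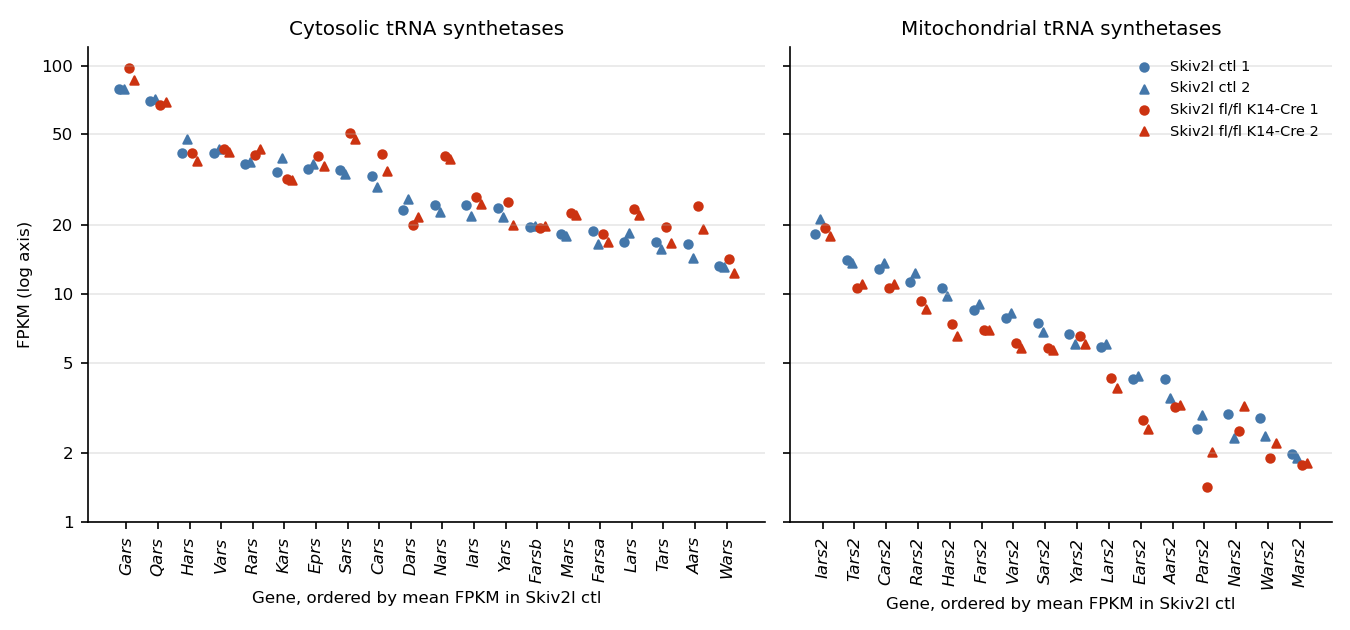
FPKM on a log axis for each synthetase gene in 2 Skiv2l ctl and 2 Skiv2l fl/fl K14-Cre libraries, cytosolic genes on the left and mitochondrial genes on the right. Each point is 1 library. Nars, Sars and Lars show both knockout points above both control points, and 13 of 16 mitochondrial genes show both knockout points below them.

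In all, 5 cytosolic synthetase transcripts rose in the knockout epidermis and none fell. Nars, which charges asparagine tRNA, and Sars, which charges serine tRNA, rose most, by 1.67 and 1.44 times in mean FPKM. Aars (alanine), Lars (leucine) and Mars (methionine) rose by 1.41, 1.30 and 1.23 times. These 5 of 20 genes (25%) passed an adjusted p below 0.05 in limma, where 8.99% of all tested genes were called higher. None of the 20 was called lower, nor did any reach an unadjusted p below 0.05 in that direction, against 25.4% of all tested genes called lower. The median log2 fold change of the 20 was 0.11, with a range from -0.23 to 0.72, and 18 of the 20 lay above the median of all tested genes. In bulk epidermis, a change in the share of cells of a type cannot be told apart from a change in RNA per cell.

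Nars (ENSMUSG00000024587.9, GRCm38 chr18:64499665-64516557, minus strand) was at 24.5 and 22.8 FPKM in the controls and at 40.0 and 39.0 FPKM in the knockouts. The log2 fold change was 0.72 ± 0.09 (SE, n = 2 per group, limma adjusted p = 0.00241), and replicates within a group differed by far less than the groups did. Sars (ENSMUSG00000068739.13, chr3:108424865-108445209, minus strand) was at 34.9 and 33.4 FPKM in the controls and at 50.8 and 47.8 FPKM in the knockouts, a log2 fold change of 0.52 ± 0.08 (limma adjusted p = 0.00658). Both genes had non-overlapping groups. Nars was called in each of the 12 other fits, the leave-one-out fits included.

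Aars (ENSMUSG00000031960.14, chr8:111033144-111057664, plus strand) was at 16.5 and 14.4 FPKM in the controls and at 24.2 and 19.3 FPKM in the knockouts, a log2 fold change of 0.46 ± 0.13 (limma adjusted p = 0.0419). Its knockout pups differed from each other by more than the knockout pups of Nars did. Lars (ENSMUSG00000024493.8, chr18:42202350-42262122, minus strand), a complex subunit, was at 16.9 and 18.4 FPKM against 23.5 and 22.2 FPKM, a log2 fold change of 0.36 ± 0.09 (limma adjusted p = 0.0292). Mars (ENSMUSG00000040354.14, chr10:127296221-127311786, minus strand), also in the complex, was at 18.3 and 18 FPKM against 22.5 and 22.1 FPKM, a log2 fold change of 0.29 ± 0.08 (limma adjusted p = 0.0434). In these 3 genes, too, both knockouts exceeded both controls. Without either control pup, only Nars of the 5 was called, and without the first knockout pup only Nars and Sars were.

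Other cytosolic synthetases did not pass the test on the deposited scale. Both knockouts exceeded both controls in 9 of 20 genes, against 18.2% of all tested genes, and lay below both controls in 3, against 55.3%. The 9 were the 5 called genes together with Cars (cysteine), Gars, Iars (isoleucine) and Rars (arginine). Gars, the most abundant, was at 78.9 and 79.2 FPKM in the controls and at 97.6 and 86.6 FPKM in the knockouts, a log2 fold change of 0.21 ± 0.09 (limma adjusted p = 0.11). Cars was at 32.7 and 29.3 FPKM against 41.1 and 34.4 FPKM, a log2 fold change of 0.27 ± 0.11 (limma adjusted p = 0.11). The first knockout pup was the higher of the pair in 16 of 20 cytosolic genes, whereas the control pups were split 10 to 10.

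On the deposited scale 7 of the 20 had a log2 fold change below 0, where the median of all tested genes was -0.20. Of these, Dars (aspartate), Kars (lysine) and Qars, all 3 in the multisynthetase complex, had both knockouts below both controls. After median scaling their log2 fold changes were -0.03, -0.01 and 0.16. Dars was at 23.3 and 26.0 FPKM in the controls and at 20 and 21.7 FPKM in the knockouts, a log2 fold change of -0.23 ± 0.10 (limma adjusted p = 0.116). Kars was at 34.3 and 39.5 FPKM against 31.7 and 31.4 FPKM, a log2 fold change of -0.22 ± 0.10 (limma adjusted p = 0.129). Qars was at 70.3 and 71.3 FPKM against 67.3 and 69.3 FPKM, a log2 fold change of -0.05 ± 0.08 (limma adjusted p = 0.616). Eprs, Farsa, Farsb, Hars, Tars, Vars, Wars and Yars had overlapping groups, with log2 fold changes from -0.16 for Hars to 0.15 for Tars. None of these 11 passed the test.

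**Figure D2:**
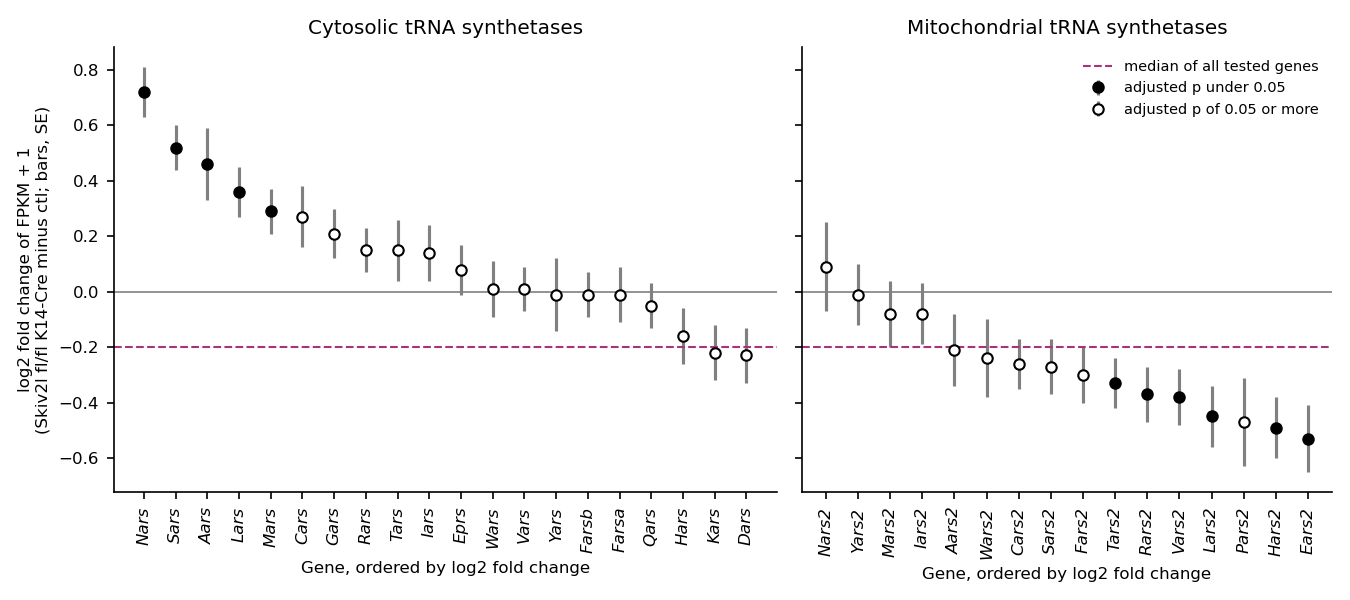
Log2 fold change of Skiv2l fl/fl K14-Cre over Skiv2l ctl on log2(FPKM + 1) for each of the 36 genes, cytosolic on the left and mitochondrial on the right, ordered by value, with bars of 1 standard error from limma and filled points for an adjusted p below 0.05. The dashed line marks the median of all tested genes at -0.20. Cytosolic values run from -0.23 to 0.72 and mitochondrial values from -0.53 to 0.09.

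The number of cytosolic calls depended on how the libraries were scaled. After scaling to a common median, 9 of the 20 were called higher, with a median log2 fold change of 0.31, while 13.9% of all tested genes were called higher. The 4 added genes were Gars (0.43, limma adjusted p = 0.0147), Cars (0.48, limma adjusted p = 0.0254), Rars (0.36, limma adjusted p = 0.0259) and Iars (0.34, limma adjusted p = 0.0474). Under quantile normalization the same 5 genes as on the deposited scale were called, with 12.4% of all tested genes called higher. No cytosolic gene was called lower under either scaling, and none had an unadjusted p below 0.05 in that direction.

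The calls were spread over the structural groupings of the enzymes, beside 8.99% of all tested genes called higher. Among the 8 enzymes of the multisynthetase complex, 2 were called higher (Lars and Mars) and the median log2 fold change was 0.11. Among the 12 cytosolic genes outside the complex, 3 were called (Aars, Nars and Sars) and the median was 0.08. Synthetases fall into 2 classes by the architecture of the catalytic domain, and 2 of 9 class I genes and 3 of 10 class II genes were called, with Eprs, which holds a domain of each class, left out. The non-enzyme scaffold of the complex gave 0 calls of 3 in limma and no unadjusted p below 0.05. Its member Eef1e1 had a log2 fold change of -0.26 and Aimp1 of 0.06, while Aimp2 was at 14.2 and 14 FPKM in the controls and at 14.2 and 14 FPKM in the knockouts. The groups were not tested against each other.

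A short DNA element, the C/EBP-ATF response element, is the site at which ATF4 and its partners bind genes of the amino acid response, and its core was searched for in the promoter sequences because ATF4 target genes changed in these libraries. The letters searched were TGATGNAA and the reverse complement TTNCATCA, on both strands, in RefSeq windows of 250 bases before to 50 bases after the gene start (GRCm38.p6). Windows were held for 13 cytosolic and 14 mitochondrial genes. At least 1 match lay in 5 of the 13 cytosolic genes with a window (38.5%) and in 0 of the 14 mitochondrial genes. Counted per window rather than per gene, 3.97% of all 32851 windows and 3.6% of 21263 windows of protein-coding genes held a match. Matches lay in Aars, Gars, Iars, Tars and Yars. Only Aars of these 5 was called on the deposited scale, with Gars and Iars added after median scaling. The called genes Mars and Sars had a window and no match, and the windows of Nars and Lars were not analysed here. A few windows are printed 5′ to 3′ on the strand of the gene, with the matching 8 bases in capitals, to show where the element lies in 3 genes called under at least 1 scaling and in 1, Yars, that was not. Aars held 2 matches, at positions 139 to 146 and 260 to 267 of its window, counted from 1 at the 5′ end. The match lay at positions 221 to 228 in Gars, 258 to 265 in Iars and 254 to 261 in Yars. A match of letters is a description and not a measured binding site.
Aars, chr8:111033592-111033891, plus strand: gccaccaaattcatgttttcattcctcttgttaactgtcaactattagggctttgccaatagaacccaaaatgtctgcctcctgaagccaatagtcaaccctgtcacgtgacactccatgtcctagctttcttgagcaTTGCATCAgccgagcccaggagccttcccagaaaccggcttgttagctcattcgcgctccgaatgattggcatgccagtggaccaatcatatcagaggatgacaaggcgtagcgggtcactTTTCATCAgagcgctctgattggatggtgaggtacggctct
Gars, chr6:55037751-55038050, plus strand: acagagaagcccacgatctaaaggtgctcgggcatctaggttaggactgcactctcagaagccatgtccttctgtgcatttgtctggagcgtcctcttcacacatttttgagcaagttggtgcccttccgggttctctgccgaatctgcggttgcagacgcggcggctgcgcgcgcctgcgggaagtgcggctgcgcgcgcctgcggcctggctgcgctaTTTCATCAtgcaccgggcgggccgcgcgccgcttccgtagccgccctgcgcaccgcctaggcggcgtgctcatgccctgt
Iars, chr13:49681880-49682179, plus strand: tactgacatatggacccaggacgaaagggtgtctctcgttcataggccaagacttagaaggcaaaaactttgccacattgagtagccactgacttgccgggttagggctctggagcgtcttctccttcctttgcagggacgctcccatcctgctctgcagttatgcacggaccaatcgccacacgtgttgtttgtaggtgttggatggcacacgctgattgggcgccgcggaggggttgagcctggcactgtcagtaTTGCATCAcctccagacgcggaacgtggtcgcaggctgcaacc
Yars, chr4:129189653-129189952, plus strand: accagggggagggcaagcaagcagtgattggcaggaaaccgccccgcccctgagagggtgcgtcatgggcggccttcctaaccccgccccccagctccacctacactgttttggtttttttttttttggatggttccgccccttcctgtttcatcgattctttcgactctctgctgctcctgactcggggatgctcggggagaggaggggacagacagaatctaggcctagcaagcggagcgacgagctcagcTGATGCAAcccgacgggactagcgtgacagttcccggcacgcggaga

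Yars, whose window holds the element on the strand of the gene, was at 23.8 and 21.7 FPKM in the controls and at 25.3 and 20.1 FPKM in the knockouts. The control and knockout values overlapped, and the log2 fold change was -0.01 (limma adjusted p = 0.959). Tars, the threonine enzyme and the fifth gene with a match, was at 16.8 and 15.7 FPKM against 19.6 and 16.7 FPKM. These values overlapped too.

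Mitochondrial synthetase transcripts lay lower in the knockout epidermis, and 6 of the 16 (37.5%) fell past the threshold in limma, where 25.4% of all tested genes were called lower. The 6 were Ears2 (glutamate), Hars2 (histidine), Lars2 (leucine), Vars2 (valine), Rars2 (arginine) and Tars2 (threonine), at 0.621 to 0.783 times the control mean. None was called higher, and none had an unadjusted p below 0.05 in that direction. The log2 fold change was below 0 in 15 of 16, with a median of -0.29 and a range from -0.53 to 0.09, beside the median of -0.20 over all tested genes. Both knockouts lay below both controls in 13 of 16 genes, against 55.3% of all tested genes. That count was made on the deposited scale and was not repeated after scaling. The 6 calls did not survive scaling. After median scaling 0 of 16 were called lower (3 at an unadjusted p below 0.05 in limma), and after quantile normalization also 0 (2 at an unadjusted p below 0.05), with group medians of -0.11 in both. Of all tested genes, 11.9% and 14.1% were called lower under these scalings.

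Ears2 (ENSMUSG00000030871.11, chr7:122037213-122067263, minus strand) had the largest fall. It was at 4.25 and 4.35 FPKM in the controls and at 2.80 and 2.55 FPKM in the knockouts, a log2 fold change of -0.53 ± 0.12 (SE, n = 2 per group, limma adjusted p = 0.0176), which became -0.37 with an adjusted p of 0.0614 in limma after median scaling. Hars2 (ENSMUSG00000019143.15, chr18:36783008-36792562, plus strand) was at 10.6 and 9.74 FPKM against 7.36 and 6.51 FPKM, a log2 fold change of -0.49 ± 0.11 (limma adjusted p = 0.0186; 0.0895 after median scaling). Lars2 (ENSMUSG00000035202.8, chr9:123366927-123462666, plus strand) was at 5.86 and 6.02 FPKM against 4.28 and 3.87 FPKM, a log2 fold change of -0.45 ± 0.11 (limma adjusted p = 0.0251; 0.113 after median scaling). In all 3 genes the knockout values lay wholly below the control values.

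Vars2 (ENSMUSG00000038838.15, chr17:35655634-35667592, minus strand) was at 7.80 and 8.27 FPKM in the controls and at 6.11 and 5.77 FPKM in the knockouts, a log2 fold change of -0.38 ± 0.10 (limma adjusted p = 0.0339). Rars2 (ENSMUSG00000028292.14, chr4:34614957-34660167, plus strand) was at 11.3 and 12.3 FPKM against 9.29 and 8.55 FPKM, a log2 fold change of -0.37 ± 0.10 (limma adjusted p = 0.0381). Tars2 (ENSMUSG00000028107.14, chr3:95739976-95760206, minus strand) was at 14 and 13.6 FPKM against 10.6 and 11.0 FPKM, a log2 fold change of -0.33 ± 0.09 (limma adjusted p = 0.0372). Their adjusted p after median scaling in limma was 0.202, 0.241 and 0.347. Without either control pup, 0 of the 16 were called lower, and without the second knockout pup only Ears2 and Pars2 were.

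Iars2, Nars2 and Yars2 departed from the other mitochondrial genes in having overlapping groups. Nars2 (asparagine) was the only member above 0, at 2.99 and 2.33 FPKM in the controls and at 2.52 and 3.24 FPKM in the knockouts, a log2 fold change of 0.09 ± 0.16 (limma adjusted p = 0.691). Iars2 (isoleucine), the most abundant, was at 18.3 and 21.3 FPKM against 19.4 and 18 FPKM. Yars2 (tyrosine) was at 6.64 and 6.05 FPKM against 6.54 and 6.04 FPKM. The other 7 genes were Aars2, Cars2, Fars2, Mars2, Pars2, Sars2 and Wars2, each with both knockouts below both controls. Their log2 fold changes ran from -0.47 for Pars2 (proline; limma adjusted p = 0.062) to -0.08 for Mars2 (methionine; limma adjusted p = 0.64).

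**Figure D3:**
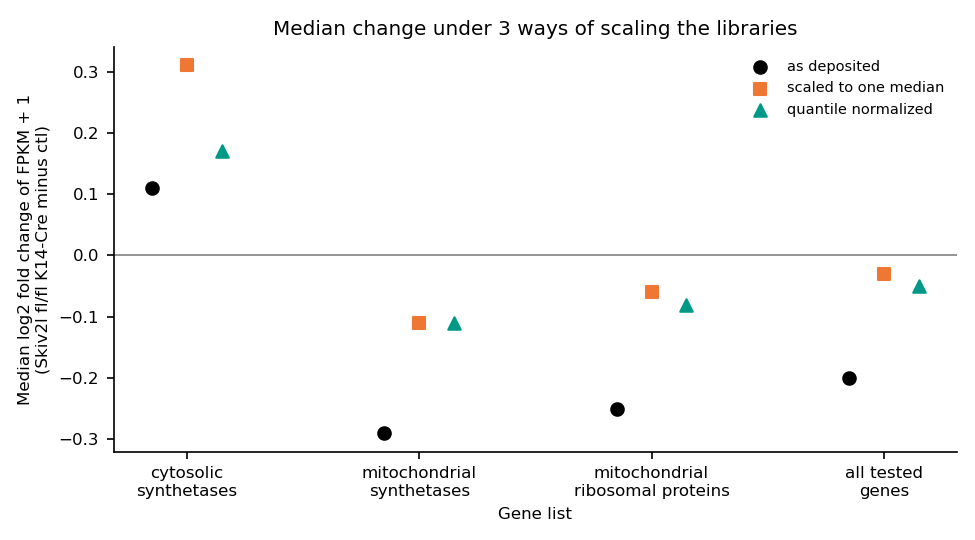
Median log2 fold change (y axis, FPKM + 1) of cytosolic synthetases, mitochondrial synthetases, mitochondrial ribosomal proteins and all tested genes, each with 1 point as deposited, 1 after median scaling and 1 after quantile normalization. The cytosolic median is 0.11, 0.31 and 0.17 and the mitochondrial median -0.29, -0.11 and -0.11 in that order.

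Enzymes for the same amino acid were also compared within each library. A ratio of FPKM does not depend on the scale of the library, although the 1 added before the logarithm does not fully cancel and matters most for low mitochondrial genes. Of 17 such pairs of a cytosolic over a mitochondrial gene, the log2 ratio of FPKM + 1 was higher in the knockout mean in 16, and at 0.00 in the pair Yars/Yars2. Both knockouts exceeded both controls in 15 of the 17, with overlap in Wars/Wars2 and Yars/Yars2. The median difference was 0.47, with a range from 0.00 to 0.81. With a pseudocount of 0.1 the knockouts exceeded the controls in 16 of 17, Wars/Wars2 included, and the median difference was 0.50. The plain FPKM ratios of Wars/Wars2 were 4.62 and 5.48 against 7.45 and 5.56, without overlap. Eprs and Fars2 each stand in 2 pairs, so the pairs are not independent, and no test was made on them. Ratios of other gene pairs were not computed, so these counts have no background share to be read against.

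Lars/Lars2 moved furthest, with FPKM ratios of 2.88 and 3.05 in control pups against 5.48 and 5.75 in knockout pups, a difference of 0.81. Sars/Sars2 was at 4.68 and 4.88 against 8.75 and 8.42, a difference of 0.79. Eprs/Ears2 was at 8.27 and 8.47 against 14.3 and 14.2. In these 3 pairs the ratios were nearly equal between pups of a group. Iars/Iars2 was at 1.34 and 1.03 against 1.37 and 1.37, so one control pup came close to the knockouts. Summed over each family, cytosolic FPKM was 623 and 626 in control pups against 707 and 663 in knockout pups, and mitochondrial FPKM was 122 and 124 against 101 and 98.5. The ratio of the sums was 5.10 and 5.04 in control pups against 7.03 and 6.74 in knockout pups. With 2 libraries per group, an exact two-sided permutation test of such a value cannot give a p below 0.333.

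**Figure D4:**
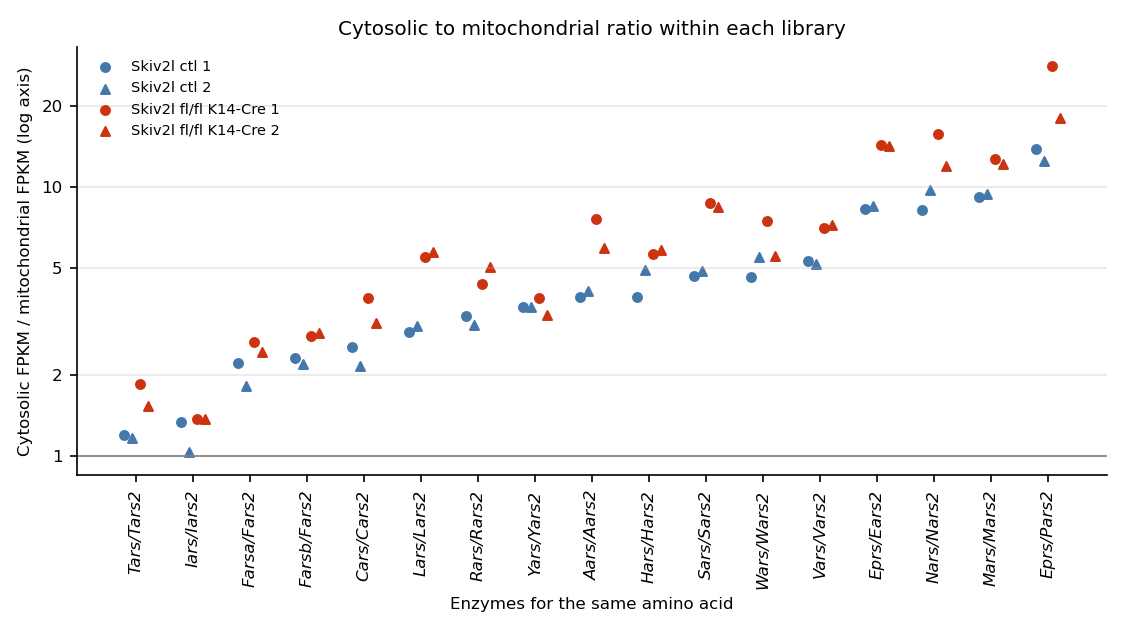
FPKM of each cytosolic gene divided by FPKM of its mitochondrial counterpart (log axis), 1 point per library for 17 pairs, ordered by the control mean. Both knockout points of Lars/Lars2 (5.48 and 5.75) lie above both control points (2.88 and 3.05), and the points of Yars/Yars2 overlap.

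Neighbouring genes can share reads with some members. Exons of Aars overlap Exosc6, which encodes an exosome subunit, on the same strand, and 13.2% of the 75-base stretches of Aars also occur in other genes. Exosc6 itself was listed at 0.589 and 0.108 FPKM in the controls and at 0.0172 and 0.00201 FPKM in the knockouts. Mars and Ddit3 overlap on opposite strands, as do Hars and Hars2, which start head to head. Whether strand was used in counting is not given in the sources used here, so reads from the stretches that such pairs share cannot be told apart. That part was 4.86% of the 75-base stretches in Hars and 0 in Mars. The shared part was 22.1% in Iars2, mostly with Rab3gap2, and 5.42%, 2.78% and 0.284% in the called genes Vars2, Hars2 and Ears2. In Lars, Mars, Nars, Sars, Lars2, Rars2 and Tars2 no 75-base stretch occurred in another gene.

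Other genes of tRNA charging did not move as a block. All 4 genes of trans-editing, enzymes that release wrongly charged amino acids from tRNA, fell on the deposited scale, where 25.4% of all tested genes were called lower. After median scaling 1 was called (11.9% of all tested genes), and after quantile normalization 0 (3 at an unadjusted p below 0.05 in limma; 14.1% of all tested genes were called). Dtd1, a D-aminoacyl-tRNA deacylase, was at 4.46 and 4.88 FPKM in the controls and at 2.58 and 2.78 FPKM in the knockouts, a log2 fold change of -0.62 ± 0.12 (limma adjusted p = 0.0112). Among 14 genes of tRNA export and maturation, 1 rose (7.14%) and 3 fell (21.4%), shares near the 8.99% and 25.4% of all tested genes. Xpot, the nuclear export receptor for tRNA, was at 16.5 and 17.5 FPKM against 23.5 and 22.5 FPKM, a log2 fold change of 0.41 ± 0.09 (limma adjusted p = 0.0163). Hsd17b10 (-0.68, limma adjusted p = 0.0112), a subunit of mitochondrial RNase P, fell. Tsen34 (-0.57, limma adjusted p = 0.00524), of the tRNA splicing endonuclease, and Rtcb (-0.44, limma adjusted p = 0.0108), the tRNA ligase, fell as well, and Rtcb lost its call after median scaling (limma adjusted p = 0.0918).

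Tarsl2, a further threonyl-tRNA synthetase gene outside the chosen names, was at 1.95 and 2.07 FPKM against 1.13 and 1.28 FPKM, a log2 fold change of -0.45 ± 0.13 (limma adjusted p = 0.0415; 0.125 after median scaling). Among 4 genes for the mitochondrial amidotransferase and formyltransferase, Gatc fell (-0.48, limma adjusted p = 0.0166; 0.0949 after median scaling). Among 4 mitochondrial elongation factors, Tufm fell, at 31.5 and 29.2 FPKM against 23.8 and 24.6 FPKM (limma adjusted p = 0.0366; 0.422 after median scaling). In each of these lists the 1 call made up 25.0%, near the 25.4% of all tested genes called lower. None of 5 cytosolic elongation factors was called on the deposited scale, nor did any have an unadjusted p below 0.05 in limma. After median scaling 0 were called, whereas 3 were called lower after quantile normalization (14.1% of all tested genes).

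Genes named Mrpl or Mrps and a number, the symbols of mitochondrial ribosomal proteins, gave 24 of 78 genes called lower (30.8%). The list rests on symbols, and whether each product is part of the ribosome was not checked. Their median log2 fold change was -0.25. That share lay between the 25.4% of all tested genes and the 37.5% of mitochondrial synthetases. After median scaling 1 of the 78 was called lower (1.28%, against 11.9% of all tested genes) and 1 higher, and after quantile normalization 2 were called lower (2.56%, against 14.1%). Mrps36 was at 4.86 and 4.80 FPKM in the controls and at 2.78 and 2.85 FPKM in the knockouts, a log2 fold change of -0.61 ± 0.11 (limma adjusted p = 0.00974). It was the 1 gene of the list called lower after median scaling (limma adjusted p = 0.0326).

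In the ATF4 amino acid response list, 8 of 14 genes were called higher and 1 lower, beside 8.99% and 25.4% of all tested genes, and the median log2 fold change was 0.70. Slc7a11, the cystine and glutamate exchanger, rose by 2.24 ± 0.17 on the log2 scale (limma adjusted p = 0.000632). Trib3, a pseudokinase, was at 12.7 and 9.96 FPKM against 37.5 and 45.8 FPKM. Asns, asparagine synthetase, which makes the amino acid that Nars charges, was at 18 and 18 FPKM in the controls and at 44.6 and 37.6 FPKM in the knockouts, a log2 fold change of 1.14 ± 0.11 (limma adjusted p = 0.0011). Atf4 itself was at 45.6 and 43.2 FPKM against 87.1 and 81.4 FPKM, a log2 fold change of 0.91 ± 0.08 (limma adjusted p = 0.0011). Phgdh, the first enzyme of serine synthesis, was the member called lower, by -0.74 ± 0.09 (limma adjusted p = 0.00273). Among 12 cytosolic initiation factors and regulators, 1 was called higher (8.33%), near the 8.99% of all tested genes, and 0 lower. Their median log2 fold change was -0.08. After median scaling 3 were called higher (25.0%, against 13.9% of all tested genes). The 1 called as deposited was Eif4ebp1, which restrains cap-dependent initiation. It rose from 9.23 and 8.10 FPKM to 29.6 and 33.0 FPKM, a log2 fold change of 1.74 ± 0.11 (limma adjusted p = 0.000309).

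Markers of the cells in the sample moved with genotype in part. Summed FPKM of 4 keratinocyte markers was 25728 and 27263 in control pups against 23766 and 27127 in knockout pups, above every other marker list, while its members moved in opposite directions. Krt14, the basal keratin whose promoter drives the Cre, was at 1736 and 1812 FPKM against 7381 and 7312 FPKM, a log2 fold change of 2.05 ± 0.11 (limma adjusted p = 0.000171). Krt1, a keratin of the differentiated layers, was called lower (-0.51, limma adjusted p = 0.0401; 0.177 after median scaling). Krt5 (-0.21) and Krt10 (-0.44) did not pass. Fibroblast markers (6 genes) summed to 61.3 and 69.0 FPKM against 21.9 and 25.0 FPKM, of which Dcn alone made up 57.0 and 62.7 against 16.9 and 21.4 FPKM. Of the other fibroblast genes tested, Col1a2 was called lower (-0.61, limma adjusted p = 0.0332), and Col1a1 (0.12), Col3a1 (-0.11) and Pdgfra (0.44) were not called. Leukocyte markers (6 genes) summed to 25.3 and 35.8 FPKM against 14.9 and 13.1 FPKM. Of the 5 tested, 3 were called lower, as deposited (25.4% of all tested genes) and after median scaling (11.9%). In the neutrophil list (4 genes), only Cxcr2, a chemokine receptor, passed the filter, at 0.127 and 0.208 FPKM against 6.51 and 5.56 FPKM. Ly6g and Elane were at 0 in every library, and Mpo was at 0 in all but the first knockout, where it was 0.0615 FPKM. Melanocyte markers (4 genes) summed to 45.3 and 51.8 FPKM against 48.1 and 60.9 FPKM. Of the 4, only Tyrp1 was called higher as deposited (0.83, limma adjusted p = 0.0279), where 8.99% of all tested genes were. After median scaling 2 were called higher (13.9% of all tested genes). Endothelial and skeletal muscle markers (4 genes each) summed to less than 1 FPKM in every library, with the endothelial gene Emcn at 0 throughout. The part of these cells in the synthetase differences was not tested.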

How the data were processed

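Epidermal RNA of 4 pups was measured, 2 Skiv2l ctl and 2 Skiv2l fl/fl K14-Cre, grouped by the genotype label. The authors deposited 1 table per pup with FPKM, TPM and coverage signal for each gene, made with a core facility RNA-seq workflow on GRCm38, per the labels. The aligner and counter are not given in the sources used here, nor is the library's strandedness. FPKM rows were summed per gene identifier. Biotypes came from GENCODE M21. Gene coordinates were those deposited with the values, and for 54037 of 54752 identifiers the start and end were the same in GENCODE M21. Depth was estimated from the ratio of deposited coverage to FPKM, and interval estimates per gene were not made because no counts are given.

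A gene entered the test when it was protein-coding and exceeded 0.5 FPKM in 1 sample or more (13609 of 21921). The quantity tested was log2(FPKM + 1), and limma 3.58.1 (R 4.3.3) fitted the group difference and moderated its variance along a mean-variance trend, with Benjamini-Hochberg adjustment over all of them and a threshold of 0.05. A fold change on this scale understates the change of low genes. The fit was tested on simulated data. These held no shift of all genes between the groups, so they do not cover the dependence on scaling. Replicates are separate pups. Alternatives were a pseudocount of 0.1, a stricter filter (more than 1 FPKM in 2 samples or more), no filter, deposited TPM, median scaling, quantile normalization, no trend, a replicate block, each pup left out, an adjusted p of 0.01 and a 1.5-fold minimum. All 36 genes are named. Full values are given for called genes with the largest changes, for Nars2 and for cytosolic members with both knockouts below both controls. Up to 3 genes of each pathway list are named by size of change. Xpot, Atf4, Phgdh and the neighbouring gene Exosc6 fall outside that rule, and their values were known when they were picked. The members and lists were chosen with earlier results of these data known. Promoter windows came from RefSeq GRCm38.p6.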

Additional observations from a re-analysis of the deposited data

How the results depend on the processing

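Calls were sensitive to the setting. The 5 cytosolic calls became 3 without a filter, 3 with TPM, 9 after median scaling and 3 without the trend. They became 2 at an adjusted p of 0.01 and 1 with a 1.5-fold minimum. The 6 mitochondrial calls became 0 without a filter, after median scaling and after quantile normalization. They also became 0 at an adjusted p of 0.01 and with a 1.5-fold minimum. Without the trend 4 were called lower, and with TPM 9. The share of all tested genes called was computed as deposited, after median scaling and after quantile normalization only. Counts under the other settings, the replicate block included, therefore have no background share to be read against. The cytosolic median log2 fold change of 0.11 became 0.31 after median scaling and 0.17 after quantile normalization, and 0.02 to 0.15 when a pup was left out. The mitochondrial median of -0.29 became -0.34 with a pseudocount of 0.1, -0.36 with TPM, -0.11 after median scaling and -0.11 after quantile normalization, and -0.32 to -0.29 when a pup was left out. The cause was not tested. Skiv2l lost its call without a filter (-0.92, limma adjusted p = 0.0706) and without the second control (-0.93, limma adjusted p = 0.0529), and ran from -1.08 to -0.77 when a pup was left out.

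Several uncalled genes changed sign. After median scaling these were Farsa (0.19), Farsb (0.19), Hars (0.05), Qars (0.16), Yars (0.19), Iars2 (0.13), Mars2 (0.06) and Yars2 (0.17). After quantile normalization these were Farsa (0.13), Farsb (0.12), Yars (0.10), Aars2 (0.02), Iars2 (0.05), Mars2 (0.12) and Yars2 (0.18). With TPM these were Vars (-0.04) and Wars (-0.04). When a pup was left out, Farsa ran from -0.10 to 0.08, Farsb from -0.03 to 0.01, Vars from -0.02 to 0.03, Wars from -0.09 to 0.10, Yars from -0.17 to 0.15, Iars2 from -0.18 to 0.03, Nars2 from -0.05 to 0.22 and Yars2 from -0.07 to 0.05.

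With the replicate number as a block, 4 cytosolic genes were called higher (Mars was lost, limma adjusted p = 0.0694) and 5 mitochondrial genes lower, with Rars2 (limma adjusted p = 0.0511) and Tars2 (limma adjusted p = 0.0587) lost and Pars2 gained (limma adjusted p = 0.0463). The labels do not say whether the numbers mark paired pups. The correlation of same-numbered deviations was -0.077, a single value that cannot settle pairing at 2 pups per group. With 2 pups per group and no counts, small differences between neighbouring genes cannot be resolved.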
